A study of Arabidopsis thaliana with 14 samples.

Results

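Guard cells are the paired epidermal cells that border each stomatal pore, and 5 genes known for their work were followed here in Arabidopsis seedlings: CHX20 (AT3G53720), AT1G22690, AT2G16630, AT4G14480 and AT5G06970. They were named in advance by locus, without a threshold on any value, but with earlier results of these arrays known. Each had exactly 1 probe set of its own, and all 5 were among the 13286 genes that could be tied to a locus on the array. The data were 14 arrays hybridised with total RNA from whole seedlings at 7 dpg (the age unit as the labels give it), in 4 groups. The yda group had 4 arrays, and its labels state neither an allele nor an ecotype. The NdelYDA group had 4 arrays of seedlings with an N-terminally truncated YDA, a form 3 labels name NB89. The labels of NdelYDA replicates 1 and 4 give the Ler background and record that stomata were absent, while those of replicates 2 and 3 give neither. The promoter behind the truncated gene and the number of lines or of pooled seedlings were not given in the sources used here. The controls were line CS9159 in the C24 ecotype (3 arrays) and the Ler ecotype (3 arrays). Biological replication is stated for the mutant arrays and for no control array, and a p-value against a control may therefore rest in part on technical spread.

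YODA (YDA), a MAP kinase kinase kinase, holds back entry into the stomatal lineage. Plants without its function form excess, clustered stomata, and plants with the constitutively active truncated kinase form none. A guard cell opens its pore by taking up ions and swelling against a thickened wall, and closes it by releasing them. CHX20 is a cation/proton exchanger of inner membranes in guard cells that takes part in light-induced opening. AT4G14480, for which the gene table gives the synonym BLUS1, is a protein kinase that carries the blue light signal from phototropins to the plasma membrane proton pump. AT5G06970 encodes a Munc13-like protein that helps deliver that proton pump to the plasma membrane, and it is not restricted to guard cells. AT2G16630 encodes a proline-rich cell wall protein needed for the cuticular ledge over the pore. AT1G22690 encodes a small cysteine-rich protein of the gibberellin-regulated (GASA) family, and its promoter is widely used to drive genes in mature guard cells.

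All values are probe set intensities on a linear scale as deposited. Between arrays of a group, log2 intensities correlated at 0.977 to 0.989. The 30th percentile of an array, used as a mark of low signal because no detection calls were used, lay between 75.1 and 85.75. In bulk RNA of whole seedlings, fewer guard cells and less transcript per guard cell cannot be told apart.

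**Figure D1:**
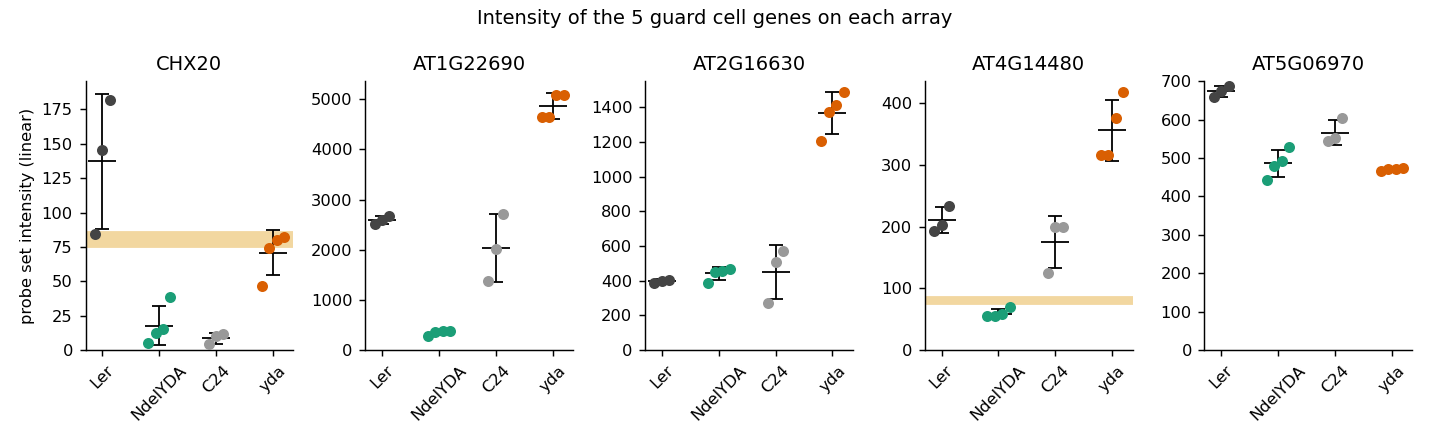
Intensity (linear, from 0) of the 5 guard cell genes on each of the 14 arrays, with a panel and scale per gene. Points are arrays, the cross bar is the group mean and the whiskers are 1 SD, and the shaded band is the range of the array 30th percentiles (75.1 to 85.75). In AT1G22690 and AT4G14480 the NdelYDA points lie lowest and the yda points highest, in AT2G16630 only yda stands apart, and in AT5G06970 the Ler points (659.1 to 687.9) are highest.

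The 5 genes did not behave as a set. CHX20, AT1G22690 and AT4G14480 were lower in NdelYDA than in Ler and higher in yda than in C24, AT2G16630 was higher in yda with no call in NdelYDA, and AT5G06970 was lower in both mutants. All 5 passed the filter on low values, and the tests come from limma fitted to the 17210 probe sets that did, with a Benjamini-Hochberg adjusted p under 0.05 as a call, and log2 changes are of intensity + 16. A call was common in these data. In NdelYDA against Ler, 16.6% of all tested probe sets were called lower, where 4 of the 5 genes were. In yda against C24, 19.1% were called higher, where 4 of the 5 were, and 24.4% lower, where AT5G06970 was. Of all tested probe sets 2.31% were called lower in NdelYDA and higher in yda, as 3 of the 5 genes were. In the remaining pairs of groups, read from the same fit to order the levels of each gene, 45.4% were called for NdelYDA against C24, 59.7% for yda against Ler and 59.3% for yda against NdelYDA. The median change of the 5 genes was -1.59 in NdelYDA against -0.01 for all tested probe sets, and 1.3 against -0.03 in yda. The label of guard cell genes therefore covers 3 genes that were lower in NdelYDA than in Ler and 2 that were not or only slightly lower there. Of the 3, CHX20 passed the filter only through yda and Ler arrays. It was not called in NdelYDA against C24 (0.38, limma adjusted p = 0.332).

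**Figure D2:**
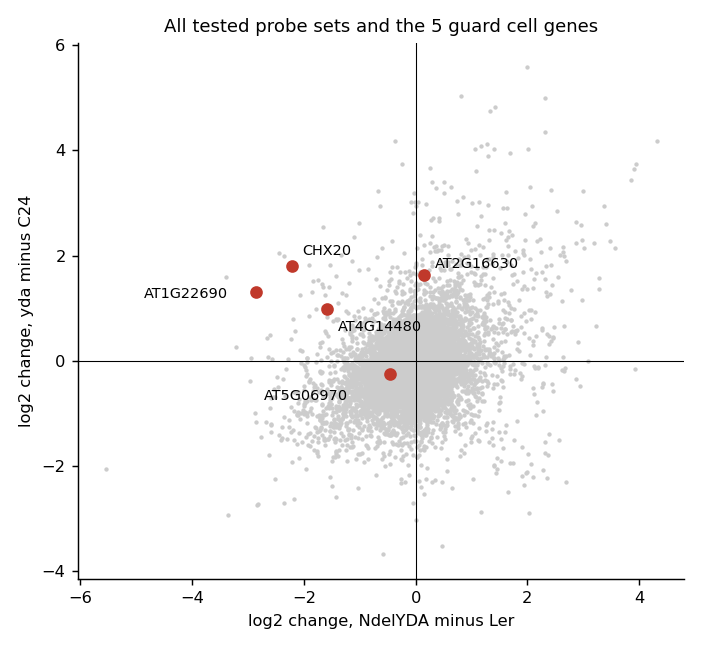
Log2 change of NdelYDA minus Ler (horizontal) against yda minus C24 (vertical) for all 17210 tested probe sets (grey) and the 5 guard cell genes (red), comparisons that share no array. CHX20, AT1G22690 and AT4G14480 lie at the upper left, AT2G16630 lies near 0 on the horizontal axis, and AT5G06970 lies inside the cloud at -0.46 and -0.26.

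Ion transport came first among these roles, with CHX20. Its intensities in Ler were 181.8, 84.7 and 145.5, a mean of 137 ± 49.1 (SD, n = 3). In NdelYDA they were 12.3, 38.3, 15.3 and 5.1, or 17.8 ± 14.4 (SD, n = 4). In C24 they were 4.3, 11.5 and 10, or 8.6 ± 3.8 (SD, n = 3), and in yda 74.2, 82.4, 46.6 and 80.3, or 70.9 ± 16.6 (SD, n = 4). Every NdelYDA and C24 array was thus below every yda and Ler array, and the lowest Ler array stood just above the highest yda array. CHX20 was a low signal throughout. Only yda replicate 4 and Ler replicates 1 and 3 exceeded the 30th percentile of their array, which is the minimum of 3 arrays that the filter on low values asked for. It therefore entered the test through the groups where it was high, and its calls and p-values are descriptive wherever they are given.

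CHX20 was lower in NdelYDA than in Ler by a log2 change of -2.22 (SE 0.306, limma adjusted p = 3.31e-05), and higher in yda than in C24 by 1.81 (SE 0.306, adjusted p = 0.000173). The control ecotypes differed as widely, at 2.6 for Ler minus C24 (SE 0.328, adjusted p = 1.2e-05). Across the array 21% of tested probe sets were called higher in Ler, and of the 5 genes CHX20 and AT5G06970 were. The order of the groups was Ler, yda and then NdelYDA and C24. All 7 arrays of the last pair were under their 30th percentile, so no order between NdelYDA and C24 was measured (0.38, 95% interval -0.27 to 1.03, adjusted p = 0.332). The first pair differed by -0.79 for yda minus Ler (95% interval -1.44 to -0.14, adjusted p = 0.0363). With the other ecotype as the control, the yda change of CHX20 thus turned in sign and the NdelYDA change was not called. The sizes also depended on the constant added before the log, since with 1 in place of 16 the NdelYDA change was -3.13 and with 64 it was -1.28, and for yda the values were 2.96 and 0.89.

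Blue light signalling was represented by AT4G14480 (BLUS1). In Ler its intensities were 234, 203.2 and 193.9 (mean 210 ± 21, SD, n = 3) and in NdelYDA 54.7, 58.1, 55.2 and 69.1 (59.3 ± 6.72, n = 4). The groups did not overlap, and each NdelYDA array was below its 30th percentile. In C24 the values were 125.8, 199.8 and 199.7 (175 ± 42.7, n = 3), and in yda 316.1, 418, 375.7 and 316.4 (357 ± 49.6, n = 4). Every yda array exceeded every control array. The log2 change was -1.59 in NdelYDA (SE 0.152, limma adjusted p = 6.11e-07), a fall of 3.01-fold on this scale whose size rests on NdelYDA values under that mark, and 0.98 in yda (SE 0.152, adjusted p = 7.48e-05), a rise of 1.97-fold.

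The order for AT4G14480 was yda, Ler, C24 and NdelYDA. Ler and C24 were neighbours that were not called different (0.27, 95% interval -0.08 to 0.61, adjusted p = 0.216). Unlike CHX20, its changes kept their direction and call against the other ecotype, at -1.32 for NdelYDA minus C24 (adjusted p = 3.16e-06) and 0.71 for yda minus Ler (adjusted p = 0.000734).

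Delivery of the proton pump was represented by AT5G06970, whose changes were small. Its intensities were 674.4, 659.1 and 687.9 in Ler (674 ± 14.4, SD, n = 3), and 480.5, 529.6, 491.3 and 443.2 in NdelYDA (486 ± 35.5, n = 4). In C24 they were 604.1, 543.5 and 551 (566 ± 33, n = 3). The yda arrays gave 472, 467.2, 473.9 and 471.3 (471 ± 2.82, n = 4), a spread of 0.599% of the mean. Both mutants lay below both controls with no overlap. The log2 change was -0.46 in NdelYDA (SE 0.0723, limma adjusted p = 0.000113) and -0.26 in yda (SE 0.0723, adjusted p = 0.00911), or 1.38-fold and 1.19-fold lower.

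In order of level AT5G06970 ran from Ler through C24 and NdelYDA to yda. The mutants, last in that order, were not called different (yda minus NdelYDA -0.04, 95% interval -0.18 to 0.1, adjusted p = 0.623). Ler was above C24 by 0.25 (SE 0.0773, adjusted p = 0.02), a call lost without C24 replicate 2 (adjusted p = 0.0656) or 3 (0.0586) or Ler replicate 1 (0.053) or 3 (0.0619). C24 was above NdelYDA, with -0.21 for NdelYDA minus C24 (adjusted p = 0.0237). Changes of this size were common, since 11.4% of tested probe sets had a lower log2 change in NdelYDA against Ler and 27.9% had in yda against C24.

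The pore's cuticular ledge was represented by AT2G16630, which stood apart in yda. Intensities there were 1490.3, 1412.1, 1371.5 and 1202.9 (1369 ± 121, SD, n = 4), and in C24 271.8, 505.5 and 569.2 (449 ± 157, n = 3). Those of NdelYDA were 468.4, 389.6, 457.8 and 451.4 (442 ± 35.5, n = 4), and those of Ler 405.4, 400.8 and 384.4 (397 ± 11, n = 3). Each yda array exceeded each array of the other groups at least by the step from 569.2 to 1202.9, and the other 3 groups overlapped. The log2 change in yda was 1.64 (SE 0.171, limma adjusted p = 1.39e-06), or 3.11-fold.

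For AT2G16630 the NdelYDA change was 0.15 with a 95% interval of -0.22 to 0.51 (limma adjusted p = 0.575). That interval does not reach the fall of AT4G14480 or AT1G22690. Below yda, the order was C24, NdelYDA and Ler by mean intensity, and none of these neighbours was called different. The intervals rest on a spread shared by all groups, to which C24 added most. With only NdelYDA and Ler in the fit, the change of 0.15 was still not called (SE 0.0784, adjusted p = 0.171). NdelYDA minus C24 was 0.04 (95% interval -0.32 to 0.4, adjusted p = 0.873), and Ler minus C24 was -0.11 (-0.5 to 0.28, adjusted p = 0.686). Without C24 replicate 1, Ler was called lower than C24 (-0.42, adjusted p = 0.00414).

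AT1G22690, the gene with the guard cell promoter, was above the 30th percentile on all 14 arrays. It was at 2682.5, 2516.2 and 2591.2 in Ler (2597 ± 83.3, SD, n = 3) and at 378.5, 355.5, 379.5 and 273.8 in NdelYDA (347 ± 49.9, n = 4). In C24 it was at 1369.2, 2013.2 and 2723.2 (2035 ± 677, n = 3), and in yda at 4646.5, 5091.6, 4646.7 and 5084.6 (4867 ± 255, n = 4). Every NdelYDA array was below, and every yda array above, all control arrays. The signal in NdelYDA was still above the 30th percentile on 4 of 4 arrays, so a transcript signal remained in seedlings of which some labels say that stomata were absent.

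The log2 change of AT1G22690 was -2.86 in NdelYDA (SE 0.162, limma adjusted p = 1.68e-09), or 7.25-fold lower. In yda it was 1.3 (SE 0.162, adjusted p = 8.34e-06), or 2.47-fold higher. The order was yda, Ler, C24 and NdelYDA. Ler and C24 overlapped and were not called different (0.4, 95% interval 0.04 to 0.77, adjusted p = 0.0795). Without C24 replicate 3, the highest C24 array, Ler was called higher (0.64, adjusted p = 0.00305), as it was after quantile normalization (0.46, adjusted p = 0.041). Against the other ecotype, NdelYDA was lower than C24 by -2.46 (adjusted p = 5.59e-09) and yda higher than Ler by 0.90 (adjusted p = 0.00016).

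**Figure D3:**
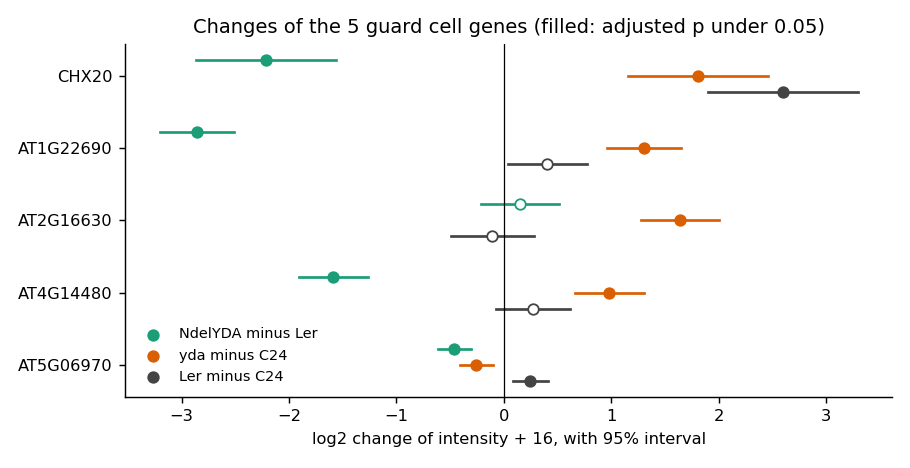
Log2 change of intensity + 16 for each guard cell gene in NdelYDA minus Ler, yda minus C24 and Ler minus C24, with 95% intervals from the limma fit. Filled points had an adjusted p under 0.05. The ecotype difference of CHX20 (2.6) is as wide as its mutant changes (-2.22 and 1.81), whereas that of AT1G22690 (0.4) is small beside its own (-2.86 and 1.3).

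The exact permutation test over arrays, two-sided, was also applied to each gene alone. It gave 0.0286, the smallest value that 35 splits allow, for all 5 genes in yda against C24. In NdelYDA against Ler it gave the same value for each gene but AT2G16630 (exact p = 0.114). Arrays of the groups did not overlap, in the lower direction, for 4 of 5 genes in NdelYDA against Ler, where 22.9% of all tested probe sets were so separated. In yda against C24, 4 genes were separated upwards (18.4% of all) and 1 downwards (23.2% of all). Ler against C24, with 3 arrays each, cannot go below 0.1, which CHX20 and AT5G06970 reached with all Ler arrays above all C24 arrays (26.6% of all tested probe sets were so separated). CHX20 is counted in each of these tallies, though it passed the filter only through yda and Ler arrays, where it was high. Its exact p-values and its separation are therefore descriptive.

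The NdelYDA change against Ler was also tested against the yda change against C24, a pairing that the yda labels do not state. This difference (NdelYDA change minus yda change) was called lower for 4 of the 5 genes, and 15.8% of all tested probe sets were. It was -4.16 for AT1G22690 (SE 0.229, limma adjusted p = 4.48e-09) and -4.03 for the low signal of CHX20 (SE 0.433, adjusted p = 3.64e-06), where the size, and so its place beside AT1G22690, depends on the added constant. The term also holds the gap between the controls. For CHX20, Ler minus C24 was 2.6 and yda minus NdelYDA only 1.43. For AT1G22690 these were 0.4 and 3.76. The difference of changes was -2.57 for AT4G14480 (SE 0.215, adjusted p = 3.24e-07) and -1.49 for AT2G16630 (SE 0.242, adjusted p = 0.000192). For AT2G16630 it holds a yda change of 1.64 and a NdelYDA change of 0.15. For AT5G06970 it was -0.2 (95% interval -0.42 to 0.01, adjusted p = 0.142) and was not called.

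The genes were also set against each other within arrays, as the difference of their log2 values. This was chosen after the values had been seen and covered 20 comparisons, 10 pairs in each mutant, with exact two-sided permutation p-values adjusted over the 20. Pairs with CHX20, and those of AT4G14480 in NdelYDA, rest on signal under the 30th percentile and are not read here. In NdelYDA, AT1G22690 fell further than AT5G06970, by -2.4 (exact p = 0.0286, adjusted 0.0477), with no overlap between arrays. Its change also lay below that of AT2G16630, by -3.0 (exact p = 0.0286, adjusted 0.0477). In yda, AT2G16630 rose further than AT4G14480, by 0.66 (exact p = 0.0286, adjusted 0.0477). AT1G22690 was not told apart in yda from AT2G16630 (-0.33, exact p = 0.0857, adjusted 0.114) or from AT4G14480 (0.32, exact p = 0.171, adjusted 0.18).

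For AT1G22690, AT2G16630 and AT4G14480 the C24 arrays spread more than those of any other group. The SD of log2 values was 0.49 for AT1G22690, 0.55 for AT2G16630 and 0.35 for AT4G14480 in C24, against a median of 0.16 over all tested probe sets there. Of all tested probe sets, 4.9%, 3.57% and 12.9% had a larger SD. In Ler the same genes had SDs of 0.05, 0.04 and 0.13. C24 replicate 1 was the lowest C24 array for all but AT5G06970, below the mean of the other 2 by -0.77 for AT1G22690, -0.94 for AT2G16630, -0.61 for AT4G14480 and -0.4 for CHX20, and above it by 0.14 for AT5G06970. Its GAPDH 3′ to 5′ signal ratio, an index of RNA integrity, was 1.458 against 1.123 and 1.018 in C24 replicates 2 and 3 and 0.789 to 0.945 in yda. The ratio was 0.992 to 1.21 in NdelYDA and 1.048 to 1.112 in Ler. Every yda array was thus below every array of the other groups in this index, and its part in the yda changes was not tested. Without C24 replicate 1 the yda changes were 1.05 for AT1G22690, 1.32 for AT2G16630, 0.78 for AT4G14480, 1.68 for CHX20 and -0.21 for AT5G06970, all still called (adjusted p at most 0.0402).

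Genes with the most similar profile were found by the root mean square difference of centred log2 values over the 14 arrays, among 9524 other probe sets of a single gene. The nearest to AT4G14480 was FMA, the gene of the bHLH factor FAMA that sets guard cell fate, at 0.267 against a median of 0.954 over all genes. FMA was at 332 in yda, 85.1 in NdelYDA, 187 in C24 and 254 in Ler. AT1G50060 (0.269) and AT1G44760 (0.29) followed. For CHX20 the nearest were AT3G49900 (0.576), SPCH (0.605) and AT1G11850 (0.647), with a median of 1.108. SPCH, which encodes the factor for the first step into that lineage, was at 122 in Ler, 95.1 in yda, 32.2 in NdelYDA and 26.7 in C24. Like CHX20 it was under the 30th percentile on all NdelYDA and C24 arrays.

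For AT2G16630 the nearest were AT2G27660 (0.199), AT5G05600 (0.241) and AT2G04570 (0.254), with a median of 0.844. AT2G04570 was also on a list of guard cell wall and ledge genes. Next to AT1G22690 stood AT1G33811 (0.344), AT3G62820 (0.411) and AT3G05730 (0.477), with a median of 1.528. AT1G33811 was at 4117 in yda, 268 in NdelYDA, 983 in C24 and 1523 in Ler. AT5G06970 had AT5G43830 (0.088), AT5G01160 (0.089) and AT5G26850 (0.089) nearest, with a median of 0.33. The likeness describes 14 arrays in 4 groups that share their ecotypes and genotypes. Among the 5 genes the closest pair was AT1G22690 and AT4G14480, at 0.635.

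**Figure D4:**
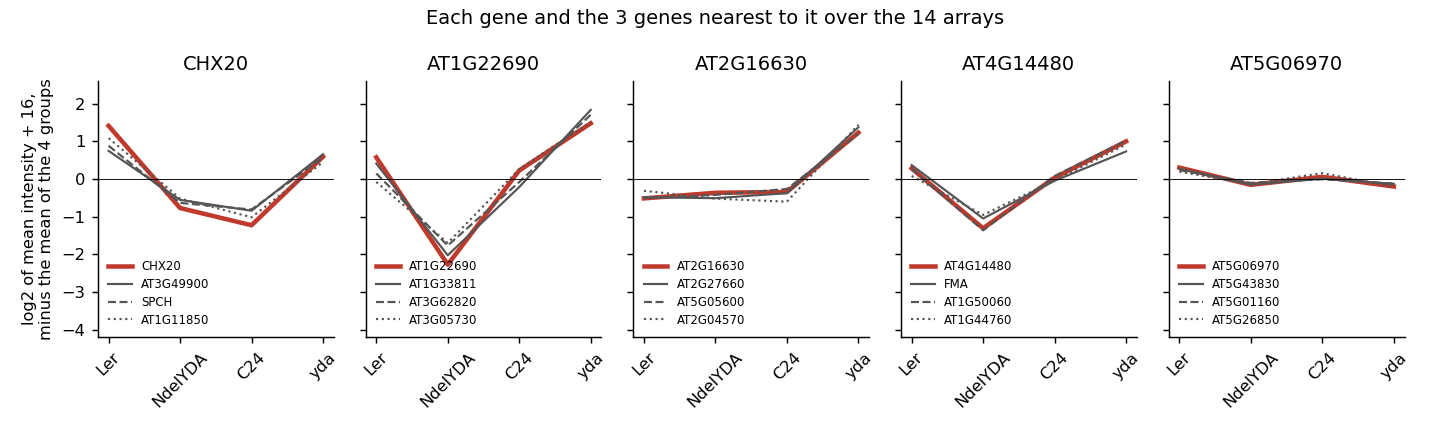
Log2 of the group mean intensity + 16, minus the mean over the 4 groups, for each guard cell gene (red) and the 3 genes nearest to it over the 14 arrays (grey lines). AT4G14480 runs with FMA, CHX20 with SPCH, and AT2G16630 with AT2G04570, both highest in yda.

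Other genes of guard cell function came from 4 lists with 64 genes (ion transport, blue light and CO2 signalling, abscisic acid signalling, and factors, wall, ledge and metabolism). Of the 64, only 5 were named by a probe set of a single gene, none of them from the lists for ion transport or abscisic acid, and all 5 were tested. In NdelYDA against Ler 1 was called higher, where 15.4% of all tested probe sets were, and 1 lower, where 16.6% were, with a median change of -0.25 (-0.01 over all). In yda against C24, 2 were higher (19.1% of all) and 2 lower (24.4% of all), with a median of -0.19 (-0.03 over all). With so few genes these shares show nothing particular to the lists. AT3G01490, of the blue light and CO2 list, rose in NdelYDA to 670 ± 29.8 (SD, n = 4) from 366 ± 61 (n = 3), a log2 change of 0.86 (SE 0.121, limma adjusted p = 4.3e-05). AT4G22790, of the same list, fell by 0.79 in NdelYDA on the log2 scale (SE 0.123, adjusted p = 0.000104). It was also lower in yda than in C24 (-0.42, adjusted p = 0.0119).

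AT2G04570, of the wall and ledge list, was at 1167 ± 44.6 in yda (SD, n = 4) against 271 ± 45.1 in C24 (n = 3), a log2 change of 2.05 (SE 0.103, limma adjusted p = 3.83e-10). In NdelYDA it was at 288 ± 12.4 against 335 ± 35.9 in Ler and was not called (-0.20, adjusted p = 0.149), the same outcome as for AT2G16630 of the ledge. Of 14 other genes of the GASA family, to which AT1G22690 belongs, 5 had a named probe set and 2 were tested. AT2G14900 was higher (0.53, adjusted p = 0.0263) and AT5G59845 lower (-0.53, adjusted p = 0.0406) in NdelYDA, and neither was called in yda. These GASA genes were named after their values had been seen.

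Few markers of other cells could be read, since most listed genes had no named probe set of a single gene. The probe table leaves 8730 probe sets unnamed, but the gap fell unevenly. Over the array 13513 of 22810 probe sets had 1 gene, whereas of the 64 guard cell list genes only 5 were named. A gene without a named probe set was not analysed here and could not appear among the nearest genes by profile. Of 11 stomatal lineage genes 3 had a named probe set (SPCH, MUTE and FMA), with summed intensities of 377.1 to 404.3 in Ler, 101.8 to 141.5 in NdelYDA, 160.1 to 267.7 in C24 and 420.4 to 524.8 in yda. MUTE, the bHLH factor between SPCH and FAMA, was below the 30th percentile on every array, at 4.4 to 5 in NdelYDA and 24.9 to 74 in yda. Of 8 mesophyll genes 2 had a named probe set. RCA, Rubisco activase, was at 10670 in Ler, 10580 in NdelYDA, 11280 in C24 and 11000 in yda and was called in neither mutant. STOMAGEN, a mesophyll peptide that promotes stomata, fell in yda by 1.21 on the log2 scale (adjusted p = 7.83e-06). The mesophyll sums overlapped between all groups (11212.3 to 12378.7 in Ler, 10951.2 to 12307.5 in NdelYDA, 11556.8 to 13222.7 in C24 and 10422.2 to 12237.1 in yda). These sums are made up mostly of RCA and cannot show the fall of STOMAGEN. Of 6 root genes EXPA7, an expansin of root hairs, had a named probe set, with 120.2 to 177.3 in Ler, 72.9 to 94.9 in NdelYDA, 92.9 to 161.5 in C24 and 138.8 to 186.4 in yda. It was lower in NdelYDA (-0.71, limma adjusted p = 0.00472), so this marker of another cell type moved with the guard cell genes there. Its part in the result was not tested. Of 7 trichome genes TRY had a named probe set, not tested for low signal (45.7 to 58.7 in yda and 51.2 to 77.7 in NdelYDA, 47 to 79.5 in C24 and 56 to 83.5 in Ler). No probe set of a single gene was named for the 7 epidermis or the 6 vasculature genes.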

How the data were processed

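Transcripts were measured on 14 1-colour Arabidopsis arrays of whole seedlings. The deposited values are linear probe set intensities with an array mean of 500 once 2% was trimmed at each end, as a global scaling would give, and the software is not given in the sources used here. The arrays' number limits the precision. Of 22810 probe sets, 64 controls were left out, 13513 had 1 gene, 503 had several and 8730 were unnamed in the probe table. Entrez identifiers matched 13436 to loci of the TAIR10.1 gene table, used for names only. The 17210 probe sets with 3 or more arrays above their 30th percentile were tested. No arrays were identical.

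One model with 4 group means was fitted to log2(intensity + 16) with limma 3.58.1 in R 4.3.3, with an intensity trend, two-sided, and Benjamini-Hochberg adjustment over the 17210. Adding 16 understates changes of low signals. The pairing of yda with C24 was read from the design, since the yda labels give no ecotype. The code was tested on simulated data. The 5 genes and the lists were chosen with earlier results of these data known. Named beside them were list genes called in either mutant with a fold of at least 1.5, the 3 nearest genes by profile, SPCH and FAMA. The lists were written from memory, and 113 of 128 entries matched a symbol or synonym of their locus in the gene table. Alternatives covered the pseudocount, filter, scaling, variance trend, samples in the fit, control, replicate block and each array left out. Same-numbered arrays did not deviate together in every pair (correlations -0.156 to 0.16), so the numbers were not taken to pair samples.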

Additional observations from a re-analysis of the deposited data

Results flagged for a closer look

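The NdelYDA change against Ler and the yda change against C24 differed for 4 genes. The difference is a contrast of the 4 group means of the limma fit, the NdelYDA change minus the yda change. The difference was -4.03 for CHX20, which was low in NdelYDA and in C24, and it includes the 2.6 by which Ler exceeded C24. For AT1G22690 it was -4.16, with NdelYDA below and yda above every control array. AT4G14480 had a difference of -2.57 with the same arrangement. The value of -1.49 for AT2G16630 arose with yda above every other array and NdelYDA overlapping C24. In NdelYDA and yda, the groups with 4 arrays, no array lay far enough from the rest to stand out for any of the 5 genes.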

How the results depend on the processing

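Each of 20 values (5 genes in 4 comparisons) was recomputed under up to 23 alternatives, 445 values in all, of which 434 kept their direction and their side of the threshold or, where uncalled, stayed uncalled. Many of these alternatives could not move the log2 change, such as leaving out an array of a group outside the comparison. The count of 434 is therefore no measure of robustness. The 4 counts of called probe sets stayed within 1.5 times in 89 of 89 cases. CHX20 reversed with the other ecotype as control, at 0.38 in NdelYDA and -0.79 in yda, and these controls differ in CHX20 itself. The remaining changes concerned Ler minus C24. AT1G22690 was called after quantile normalization (0.46), and leaving out 1 array moved it between 0.15 and 0.64. AT2G16630 ran from -0.42 to 0.091 when 1 array was left out. AT5G06970 lost its call after median scaling (0.20) and with only Ler and C24 in the fit (0.25), and ran from 0.22 to 0.29 when 1 array was left out. With the replicate block the counts called were 5110 in NdelYDA, 7171 in yda, 6247 for Ler minus C24 and 5587 for the difference of effects, against 5503, 7470, 6399 and 5753, and no call of the 5 genes changed. For CHX20, the constant added before the log moved the difference of effects from -4.03 to -6.09 (with 1) or -2.17 (with 64), and Ler minus C24 from 2.6 to 3.87 or 1.44. Low signal limits CHX20 in all groups and AT4G14480 in NdelYDA, where values lay under the 30th percentile.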
